A study of Homo sapiens with 8 samples.

Results

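The 36 genes described here encode the machinery that brings new secretory and membrane proteins into the endoplasmic reticulum (ER) and attaches N-linked sugar chains to them. They were taken by symbol from a table of 35394 gene rows, and all 36 were found and passed the filter on low counts, TUSC3 only through its PZH libraries. By role they divide into 6 subunits of the signal recognition particle (SRP), 2 subunits of its receptor, 8 genes of the SEC61 channel and its partners, 4 of the TRAP complex, 5 of signal peptidase and 11 of oligosaccharyltransferase. HCT116 is a human colorectal cancer line, described in the labels as epithelial cells of colon origin with a ras mutation. Cells were exposed for 24 h to PZH, short for Pien Tze Huang, a formula of traditional Chinese medicine, or to the solvent DMSO as control, and poly(A) RNA of 4 libraries per group was sequenced. The labels used here give no dose and do not say whether replicates came from separate cultures, so p-values measure the spread between libraries, which may be technical. By its title the study concerns reactive oxygen species and colorectal cancer under this medicine, and the comparison here asks how ER entry genes differ between treated and control cells.

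A protein bound for the secretory route carries a hydrophobic signal that SRP recognises as it leaves the ribosome. SRP slows the ribosome and docks it at the SRP receptor, and the chain then passes through the SEC61 channel, helped by TRAM, TRAP, SEC62 and SEC63. Signal peptidase cuts the signal off, and oligosaccharyltransferase transfers a ready-made sugar tree from a lipid carrier to asparagine residues. Colon epithelial cells use this route for adhesion molecules, receptors and secreted proteins. Many of these genes are known as targets of the unfolded protein response, whose factors XBP1 and ATF6 raise the capacity of the ER.

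Libraries held 18144117 to 18868057 counts in PZH and 19288836 to 19917571 in DMSO, so that 3 counts correspond to 0.151 to 0.165 CPM (a gene's count relative to its library's total). Levels are CPM on TMM-scaled library sizes unless stated otherwise, and since these are bulk samples, a change in a share of the cells and a change in RNA per cell cannot be told apart. The cells carried most markers of their labelled type. Of 7 epithelial markers 6 averaged 1 CPM or more, with a summed unscaled level of 2382 to 2707 CPM in PZH and 3846 to 3913 CPM in DMSO, while the brush border gene VIL1 averaged 0.0151 CPM in PZH and 0.0466 CPM in DMSO. The markers did not move as one: KRT8 fell 1.91-fold, to 985 ± 85.6 CPM in PZH against 1879.6 ± 18.3 CPM in DMSO, CDX2 fell 1.45-fold, CDH1 rose 3.12-fold, EPCAM was called higher at 1.08-fold, which is less than the scaling of libraries moves the median gene, and KRT18 and KRT19 were not called. Of 6 fibroblast markers only COL1A1 averaged 1 CPM or more in a group, at 20.8 ± 1.65 CPM in PZH and 11.7 ± 1.13 CPM in DMSO, a rise of 1.77-fold. PDGFRB, at 0.816 ± 0.229 CPM in PZH and 0.303 ± 0.108 CPM in DMSO, was called higher at 2.64-fold, from few counts. It had 11, 13, 19 and 12 counts in the PZH libraries and 8, 7, 8 and 3 counts in the DMSO libraries. PDGFRB thus passed the filter on low counts only through its PZH libraries, so its call is no support of its own. COL1A2 had no count in any library. The fibroblast list summed to 17.5 to 21.3 unscaled CPM in PZH and 11.7 to 14.3 in DMSO. On the same unscaled measure, endothelial markers summed to 0.265 to 0.912 CPM in PZH and 1.09 to 1.58 CPM in DMSO, immune markers to 0.268 to 2.04 CPM in PZH and 0.674 to 3.72 CPM in DMSO, and erythroid markers to 0 to 0.318 CPM in PZH and 0.207 to 0.552 CPM in DMSO. The part of other cells in the results on ER entry genes was not tested.

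Relative to the scaled library sizes, mRNA for nearly the whole ER entry apparatus was higher in PZH-treated cells. Of the 36 genes, 31 were called higher and 5 lower, where a call is an adjusted p below 0.05 in edgeR's quasi-likelihood test, adjusted after Benjamini-Hochberg over the 15006 genes tested. Over all genes tested 39.3% were called higher and 40.9% lower, 80.3% in either direction. Calls of at least 2-fold were made for 20 genes in the higher direction, against a background of 15.8%, and for 1 gene in the lower direction, against 18.9%. The median log2 fold change of the 36 genes was 1.07, and that of all genes tested was -0.024. With unscaled library sizes the median over all genes moved by -0.26, and 28 of the 36 genes were still called higher and 5 lower, while over all genes the higher share of calls was 36.8% in place of 49.0%. Together the 36 genes summed to 9277 to 9587 CPM in PZH and 5018 to 5110 CPM in DMSO. In all 36 genes the PZH and DMSO libraries did not overlap, a pattern found in 75.0% of all genes tested. Every PZH library was above every DMSO library in 31 genes and below in 5, against 36.6% and 38.4% of all genes tested. The genes called lower were the SRP subunits SRP9 and SRP14, the translocon partner TRAM2, and SPCS1 and SEC11A of signal peptidase.

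**Figure D1:**
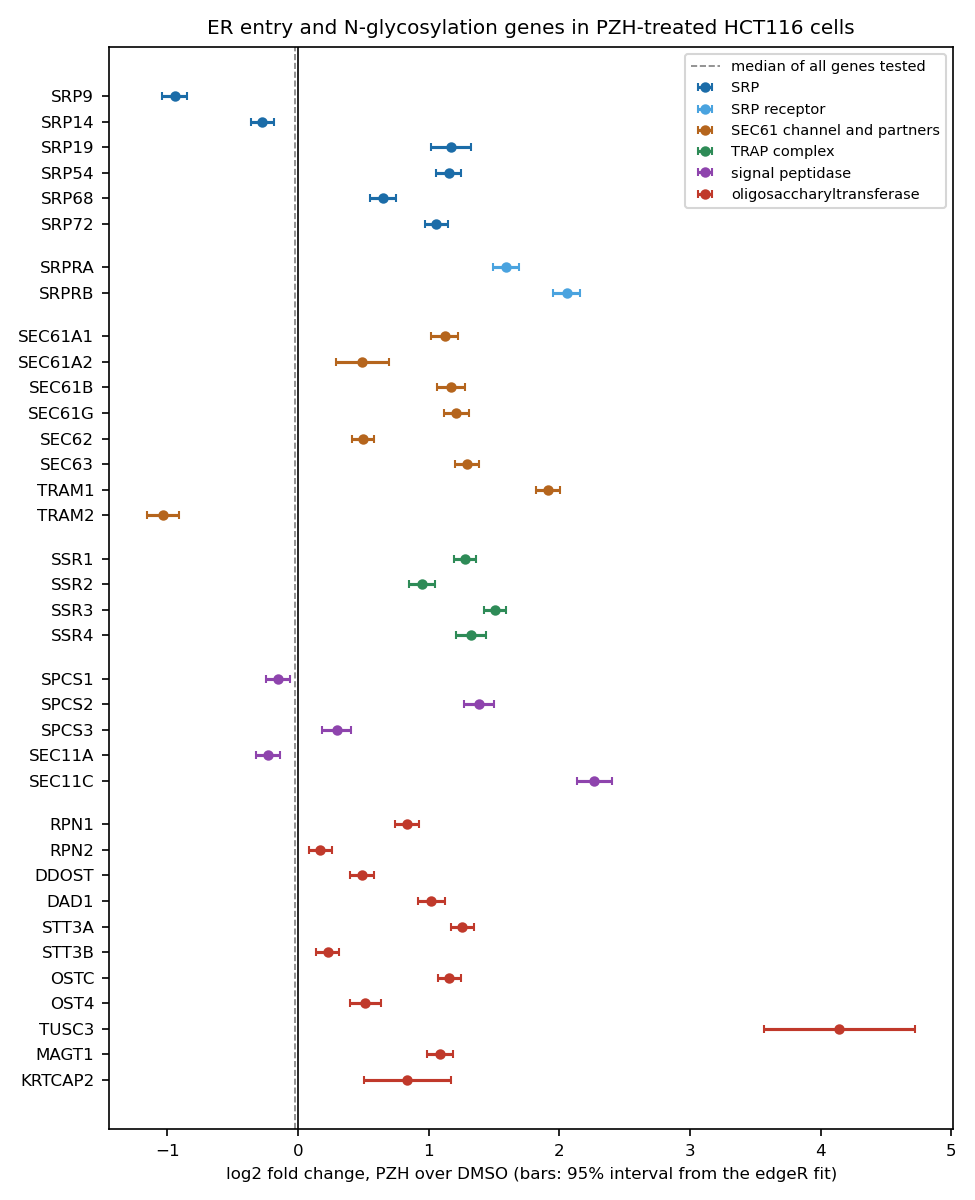
Log2 fold change of PZH over DMSO for the 36 ER entry and N-glycosylation genes, grouped by complex. Points are edgeR estimates from 4 libraries per group and bars are 95% intervals. The dashed line is the median of all genes tested, at -0.024. Most genes lie to the right of 0, and SRP9, SRP14, TRAM2, SPCS1 and SEC11A lie to the left.

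The rises were not uniform. The TRAP genes kept close together, between 0.95 and 1.51 on the log2 scale, whereas signal peptidase genes spread from -0.23 to 2.27 and SEC61 genes and partners from -1.03 to 1.91. Oligosaccharyltransferase genes ran from 0.17 to 4.14, the upper end being TUSC3 at few counts. Replicates were tight beside these differences. The median coefficient of variation across the 36 genes was 5.50% among PZH libraries and 3.57% among DMSO libraries, with 26 genes more variable in PZH. The spread was also larger in PZH over all genes tested. There edgeR's common coefficient of variation beyond counting noise was 8.02% in PZH and 3.55% in DMSO. PZH replicate 3 was the highest PZH library for 13 of the genes and replicate 4 the lowest for 13.

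**Figure D2:**
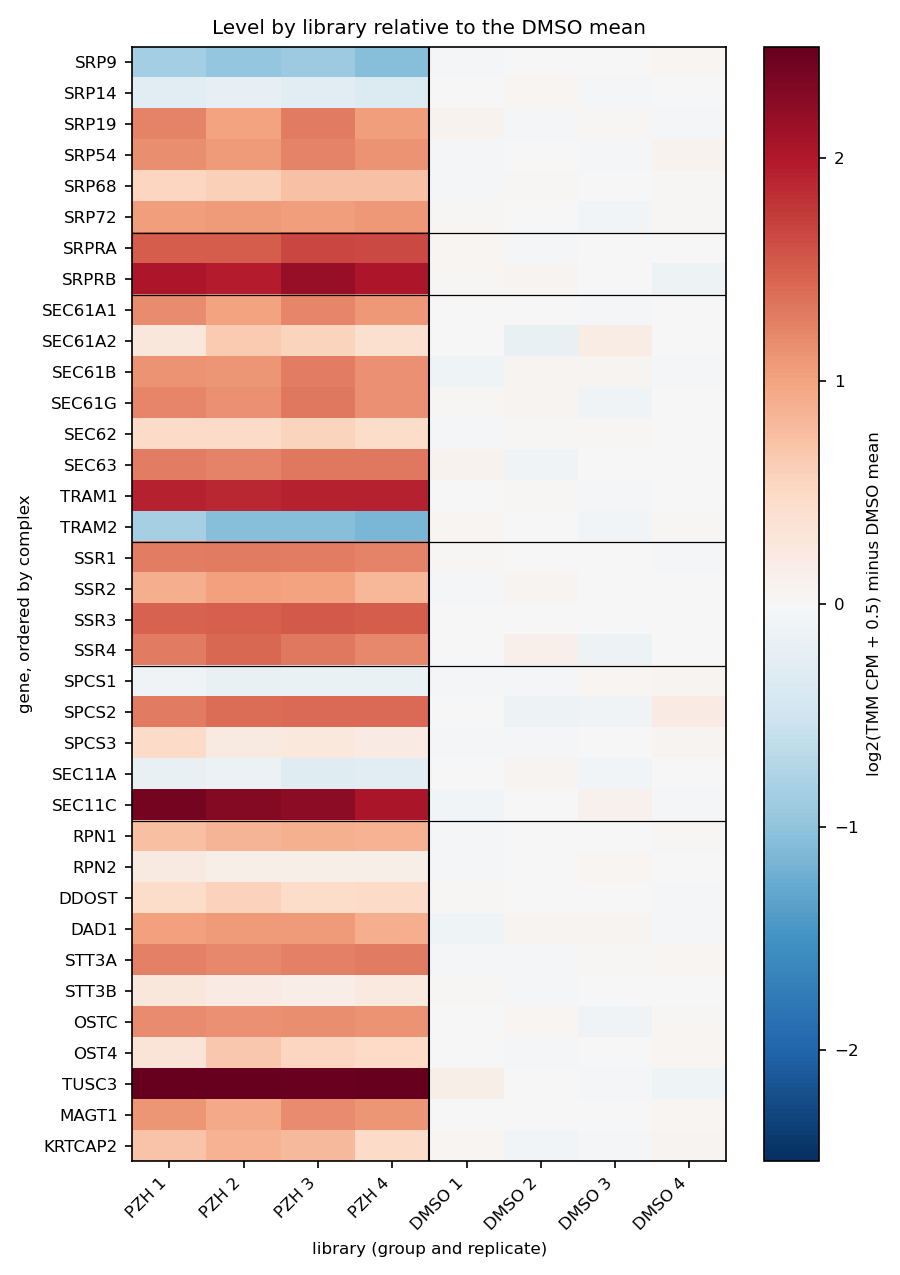
Level of each gene in each library, as log2(TMM CPM + 0.5) minus the mean of the DMSO libraries, with PZH libraries on the left and DMSO libraries on the right. Colours end at -2.5 and 2.5, and TUSC3 lies near or beyond the upper end in PZH. The 4 PZH libraries share the direction for every gene.

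Because many of the genes moved together, the bases before their transcription starts were searched for sites known from the unfolded protein response. The RefSeq promoter table (GRCh38.p14) holds 38 windows for 30 of the 36 genes, each from 250 bases before to 50 bases after a start. SRPRA, TRAM1, SPCS1, RPN1, STT3B and TUSC3 were not searched. The letters TGACGTGG, the core of the element to which XBP1 binds, were found on either strand in 4 of 30 genes, which is 13.3%. Of all 27305 genes with a window, 0.927% held these letters in at least 1 window, as did 1.16% of the genes that were also tested here. The 4 genes are SRP19, SSR3, SSR4 and SEC62, and in each the letters lay on the strand opposite to the gene, so they read CCACGTCA in the gene's direction. For each gene 30 bases around the match are shown, with the match in capitals, to let the surroundings be compared.
SRP19, plus strand, chr5:112861164-112861193: aagtcttcatgCCACGTCAgagactagaga
SSR3, minus strand, chr3:156554148-156554177: tctgataacagCCACGTCAgcaaggaaact
SSR4, plus strand, chrX:153794528-153794557: tcagggaggggCCACGTCAgtgctgccaga
SEC62, plus strand, chr3:169966777-169966806: ccccctcctcgctCCACGTCAgagggaacc
The match began 112 bases before the start in SRP19 and 17 in SEC62, each of which has 1 window. SSR3 has 3 windows and SSR4 has 2, and the match lay before only 1 start of each, by 41 bases in SSR3 and 129 in SSR4. It lay 679 and 951 bases after the other starts of SSR3 and 90 bases after the other start of SSR4. In GENCODE 29 the match in SEC62 and that in SSR4 fall in an exon, within a UTR of a transcript of the same gene that starts further upstream, and that in SSR3 falls in an intron. The match in SRP19 falls within a transcript of another gene model, AC008575.1, on the same strand, outside its exons. All 4 genes were called higher in PZH, by 2.25-fold, 2.84-fold, 2.50-fold and 1.41-fold, but so were most of the genes without the letters. The shorter CCACG, which lies within this match and within the longer elements, was found on either strand in 20 of 30 genes, which is 66.7%, against 57.3% of genes tested and 42.1% of all genes with a window. The ER stress elements ERSE and ERSE-II were each found in 0 of 30 genes. They were found in 0.0916% and 0.0696% of all genes with a window, and in 0.165% and 0.136% of genes tested. Letters this rare would seldom be met in 30 genes, so nothing was concluded from their absence. TGATGNAA, a core of sites bound by ATF4, was found in 1 gene, the receptor subunit SRPRB, which is 3.33%, against 4.46% of all genes with a window and 2.68% of genes tested. These are matches of letters in short windows, and binding was not measured.

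SRP split by the domain its subunits form. SRP9 and SRP14 form the dimer that slows translation at the ribosome's elongation site. SRP9 levels were 141, 130.2, 136 and 122 CPM in replicates 1 to 4 of PZH and 247, 252, 255 and 263 CPM in replicates 1 to 4 of DMSO, the order used throughout. All PZH libraries were lower, and SRP9 fell 1.92-fold (log2 fold change -0.94 ± 0.048, standard error; edgeR adjusted p = 2.59e-14). SRP14 fell 1.21-fold, with 157 ± 6.27 CPM in PZH and 190.1 ± 6.18 CPM in DMSO (mean ± SD, n = 4 each, as for all such values here).

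The subunits that bind the signal sequence and the receptor went the other way. SRP54, the GTPase that holds the signal sequence, had 203, 189.8, 214 and 197 CPM in PZH and 87.0, 90.5, 87.6 and 96.7 CPM in DMSO. It rose 2.22-fold (log2 fold change 1.15 ± 0.050, edgeR adjusted p = 1.12e-15), with every PZH library above every DMSO library. SRP19, which helps SRP54 onto the RNA of the particle, rose 2.25-fold, with 39.6, 34.0, 41.3 and 34.6 CPM in PZH and 17.6, 15.9, 17.0 and 15.9 CPM in DMSO. The scaffold pair SRP68 and SRP72 rose 1.57-fold and 2.08-fold. SRP72 had 406 ± 4.88 CPM in PZH and 195 ± 6.66 CPM in DMSO, and SRP68 had 397 ± 24.9 CPM in PZH and 252 ± 6.49 CPM in DMSO. In the GENCODE 29 annotation, 29.6% of the exon bases of SRP19 also belong to a pseudogene of another family on the same strand, so part of its count is uncertain.

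Both receptor subunits rose more than any subunit of the particle. SRPRB, the membrane anchor of the receptor, stood at 296, 285, 329 and 293 CPM in PZH and 74.2, 76.2, 72.6 and 66.6 CPM in DMSO. Every PZH library was far above the DMSO libraries, a rise of 4.15-fold (log2 fold change 2.05 ± 0.054, edgeR adjusted p = 1.63e-19). SRPRA, the GTPase that meets SRP54, rose 3.01-fold, with 362 ± 20.6 CPM in PZH and 120.2 ± 3.59 CPM in DMSO. Their 95% intervals of the log2 fold change were 1.95 to 2.16 for SRPRB and 1.49 to 1.69 for SRPRA, and the highest interval among SRP subunits was that of SRP19, 1.02 to 1.32.

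The 3 subunits of the main SEC61 channel rose 2.17-fold to 2.32-fold. SEC61A1, the pore itself, had 711, 627, 727 and 664 CPM in PZH and 316, 317, 307 and 314 CPM in DMSO. It rose 2.17-fold (log2 fold change 1.12 ± 0.052, edgeR adjusted p = 3.57e-15), with no overlap between groups. In GENCODE 29, 4.04% of SEC61A1 exon bases overlap RUVBL1 on the opposite strand. RUVBL1 stood at 33.1 ± 3.33 CPM in PZH and 182 ± 5.49 CPM in DMSO. The small subunits SEC61B and SEC61G rose 2.25-fold and 2.32-fold. SEC61B stood at 93.8 ± 5.37 CPM in PZH and 41.6 ± 2.55 CPM in DMSO, and SEC61G at 181 ± 10.8 CPM in PZH and 78.3 ± 3.30 CPM in DMSO. SEC61A2, a second gene for the pore, rose 1.41-fold, with 16.2 ± 1.83 CPM in PZH and 11.5 ± 1.21 CPM in DMSO. In GENCODE 29 a part of SEC61A2 exons, 9.46% of bases, overlaps NUDT5 on the opposite strand, a gene at 51.8 ± 2.35 CPM in PZH and 107 ± 3.26 CPM in DMSO, and whether the counting used strand was not stated.

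Channel partners differed from each other. SEC63, a membrane J-domain protein that brings the chaperone BiP to the channel, rose 2.45-fold, with 159 ± 4.07 CPM in PZH and 64.8 ± 3.36 CPM in DMSO. Its partner SEC62 rose 1.41-fold, with 137 ± 3.64 CPM in PZH and 97.0 ± 2.38 CPM in DMSO. TRAM1, which lies beside the channel and contacts signal sequences, had 859.9, 835, 855 and 851 CPM in PZH and 225, 229, 221 and 227 CPM in DMSO. The PZH libraries were all higher and varied by 1.29% (coefficient of variation), and TRAM1 rose 3.77-fold (log2 fold change 1.91 ± 0.046, edgeR adjusted p = 3.32e-20).

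TRAM2, a relative of TRAM1 linked to collagen synthesis, fell. It stood at 42.1, 35.6, 35.6 and 34.0 CPM in PZH and 78.1, 75.3, 71.5 and 76.7 CPM in DMSO. All PZH libraries lay below, a fall of 2.05-fold (log2 fold change -1.03 ± 0.062, edgeR adjusted p = 4.23e-13). TRAM2 was the only one of the 36 genes that fell by at least 2-fold.

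All 4 TRAP genes were called higher, at 1.93-fold to 2.84-fold, against 39.3% of all genes tested. TRAP sits on the channel and helps weak signal sequences start translocation. SSR3 had 586, 590.2, 605 and 597 CPM in PZH and 210.5, 207, 212 and 207 CPM in DMSO, with the groups far apart, and rose 2.84-fold (log2 fold change 1.51 ± 0.045, edgeR adjusted p = 1.25e-18). SSR1 rose 2.42-fold to 457 ± 8.43 CPM in PZH, against 188 ± 3.15 CPM in DMSO. SSR4 rose 2.50-fold to 129.7 ± 8.75 CPM in PZH, against 51.8 ± 3.79 CPM in DMSO, and SSR2 rose 1.93-fold to 255 ± 15.7 CPM in PZH, against 132 ± 4.64 CPM in DMSO. Exons of SSR4 share 16.2% of their bases with IDH3G on the opposite strand in GENCODE 29, and IDH3G was lower in PZH (log2 fold change -0.84 ± 0.074, edgeR adjusted p = 4.62e-10). Both SSR3 and SSR4 carry the CCACGTCA match printed above.

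The catalytic subunits of signal peptidase moved in opposite directions. The enzyme uses either SEC11A or SEC11C as its protease. SEC11C stood at 147, 138, 132 and 115 CPM in PZH and 26.4, 27.9, 29.7 and 26.5 CPM in DMSO. Every PZH library was above every DMSO library, and SEC11C rose 4.81-fold (log2 fold change 2.27 ± 0.067, edgeR adjusted p = 1.18e-18), the largest rise among the 36 genes after TUSC3. SEC11A had 117, 122, 109 and 109 CPM in PZH and 134, 139.8, 128 and 135 CPM in DMSO. It was lower in every PZH library, by 1.17-fold (log2 fold change -0.23 ± 0.048, edgeR adjusted p = 1.45e-04).

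The accessory subunits of signal peptidase also parted. SPCS2 rose 2.61-fold, with 224 ± 9.22 CPM in PZH and 85.8 ± 8.82 CPM in DMSO. A pseudogene of it, SPCS2P4, has a count row of its own that summed to 12.6% of the SPCS2 count over all libraries, so reads may be split between them. SPCS2P4 stood at 21.4 ± 7.86 CPM in PZH and 16.1 ± 6.20 CPM in DMSO and was not called (edgeR adjusted p = 0.0984). SPCS3, whose yeast counterpart is needed for cleavage, rose 1.23-fold, with 197 ± 19.1 CPM in PZH and 161 ± 5.84 CPM in DMSO, but with no scaling factors its log2 value was 0.040 and it was not called (adjusted p = 0.563). SPCS1 fell 1.11-fold, with 96.5 ± 3.08 CPM in PZH and 107 ± 4.71 CPM in DMSO (edgeR adjusted p = 0.00548). In GENCODE 29, 60.5% of the exon bases of SPCS1 are shared with NEK4 on the opposite strand, at 49.2 ± 2.08 CPM in PZH and 48.3 ± 4.24 CPM in DMSO, which makes the value of SPCS1 uncertain.

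All 11 oligosaccharyltransferase genes were called higher, against 39.3% of all genes tested. Without scaling factors, however, RPN2 and STT3B turned to small negative values that were not called. Cells build this enzyme around either STT3A, which glycosylates chains as they pass the channel, or STT3B, which works on sites that were passed over. STT3A had 547, 528, 553 and 569 CPM in PZH and 223, 225, 233 and 238 CPM in DMSO. All PZH libraries were higher, and STT3A rose 2.39-fold (log2 fold change 1.26 ± 0.047, edgeR adjusted p = 7.43e-17). STT3B had 335, 320.4, 309 and 327 CPM in PZH and 283, 269.7, 273 and 279 CPM in DMSO. The groups lay close without overlap, and STT3B rose 1.17-fold (log2 fold change 0.23 ± 0.045, edgeR adjusted p = 8.91e-05), but without scaling factors its log2 fold change was -0.033 and was not called (adjusted p = 0.496).

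Subunits that go with only one form of the enzyme rose in both forms. OSTC, which joins the STT3A form to the channel, rose 2.23-fold, with 210.4 ± 3.23 CPM in PZH and 94.3 ± 3.92 CPM in DMSO. KRTCAP2, also of the STT3A form, was read at low counts, with 4.48 ± 0.577 CPM in PZH and 2.50 ± 0.130 CPM in DMSO, and rose 1.79-fold (edgeR adjusted p = 1.22e-04). In GENCODE 29, 82.4% of its exon bases also belong to another gene model on the same strand, so its count may be incomplete. MAGT1, an oxidoreductase subunit of the STT3B form, had 223, 200.5, 236 and 226 CPM in PZH and 103, 103, 103 and 108 CPM in DMSO, and rose 2.13-fold (log2 fold change 1.09 ± 0.050, edgeR adjusted p = 3.54e-15).

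TUSC3, the alternative to MAGT1 in the STT3B form, was barely detected in control cells. It had 60, 69, 56 and 60 counts in PZH replicates 1 to 4 and 6, 4, 4 and 3 counts in DMSO replicates 1 to 4, at the edge of the floor of 3 counts. All PZH libraries were above all DMSO libraries at a low level in both groups, 3.62 ± 0.324 CPM in PZH and 0.198 ± 0.0546 CPM in DMSO. Over the group, 245 counts in PZH and 17 in DMSO gave a depth-adjusted ratio of 18.2, and its 95% interval (exact binomial) of 11.1 to 31.7 covers counting error only. TUSC3 passed the filter on low counts (minimum count 10) only through its PZH libraries. Its edgeR adjusted p of 1.17e-11 is therefore no support of its own, although TUSC3 is counted among the genes called higher.

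The shared subunits of oligosaccharyltransferase rose unevenly. RPN1, which binds the ribosome and substrate chains, rose 1.78-fold, with 609 ± 24.5 CPM in PZH and 342 ± 6.64 CPM in DMSO. RPN2 rose only 1.12-fold, with 324 ± 9.43 CPM in PZH and 288 ± 7.20 CPM in DMSO, and the call was lost with upper quartile factors (log2 fold change 0.095, adjusted p = 0.0518) and without scaling factors, where its log2 fold change was -0.090 (adjusted p = 0.0712). DDOST, a structural subunit near the catalytic site, rose 1.40-fold to 529 ± 20.9 CPM in PZH, against 376 ± 7.89 CPM in DMSO. DAD1, whose loss leads to cell death in hamster cells, rose 2.03-fold to 187 ± 8.83 CPM in PZH, against 92.0 ± 5.53 CPM in DMSO. OST4, a very small subunit that steadies the complex in yeast, rose 1.43-fold to 80.4 ± 7.76 CPM in PZH, against 56.3 ± 1.60 CPM in DMSO. In GENCODE 29, DDOST shares 20.1% of its exon bases with PINK1-AS on the same strand, and OST4 shares 20.7% with AGBL5 on the opposite strand. Both of those genes were lower in PZH, with log2 fold changes of -1.63 and -1.09.

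**Figure D3:**
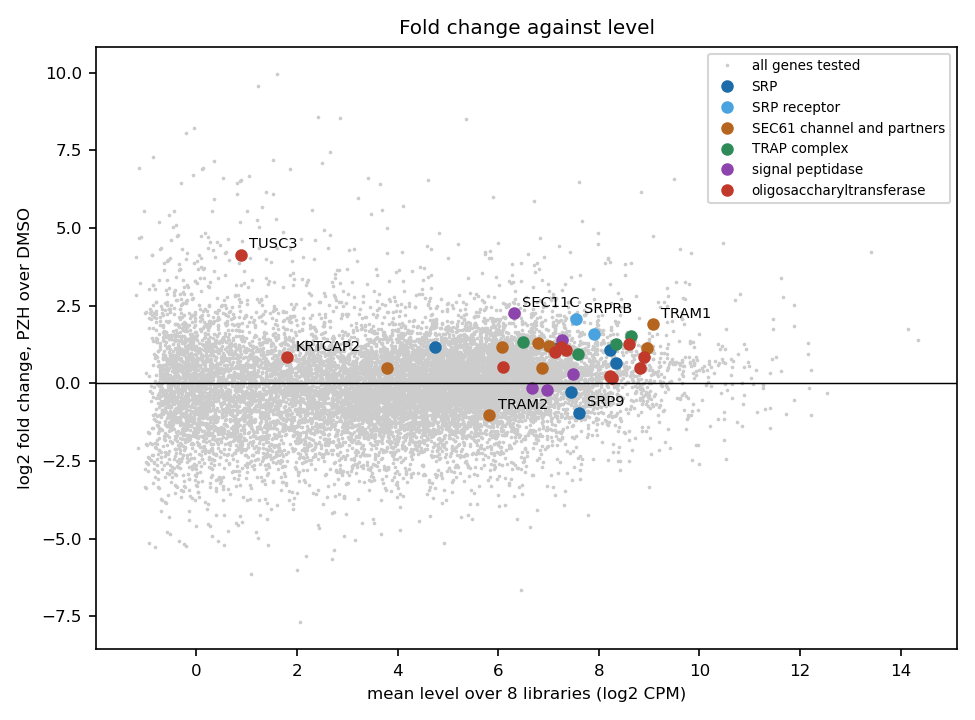
Log2 fold change of PZH over DMSO against mean level (log2 CPM over 8 libraries) for all 15006 genes tested (grey) and the 36 ER entry and N-glycosylation genes (coloured by complex). TUSC3 and KRTCAP2 lie among low genes, while SRPRB, TRAM1 and SEC11C rise at levels where counting error is small.

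In all 5 pairs of related subunits, the balance within a library differed between groups. Over all genes tested, 75.0% did not overlap between groups and 80.3% were called, and ratios of other gene pairs were not examined. A ratio of counts within a library does not depend on the scaling of libraries, and since genes differ in length only its change was read. The log2 ratio of SEC11C to SEC11A was 0.33, 0.18, 0.27 and 0.069 in PZH replicates 1 to 4 and -2.35, -2.33, -2.11 and -2.34 in DMSO replicates 1 to 4, a difference of 2.49 ± 0.081 (standard error), or 5.63-fold towards SEC11C. For STT3B to STT3A it was -0.71, -0.72, -0.84 and -0.80 in PZH and 0.34, 0.26, 0.23 and 0.23 in DMSO, a difference of -1.03 ± 0.041, or 2.05-fold towards STT3A. TRAM2 to TRAM1 stood at -4.35, -4.55, -4.59 and -4.65 in PZH and -1.53, -1.60, -1.63 and -1.57 in DMSO, a difference of -2.95 ± 0.067, or 7.74-fold towards TRAM1.

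The TUSC3 to MAGT1 ratio moved by 2.98 ± 0.21 towards TUSC3, which rests on the few TUSC3 counts in DMSO. The SEC61A2 to SEC61A1 ratio was -5.65, -5.11, -5.41 and -5.44 in PZH and -4.80, -4.98, -4.56 and -4.76 in DMSO, a difference of -0.63 ± 0.14 towards SEC61A1. In each of the 5 pairs the groups did not overlap, with an exact two-sided permutation p of 0.0286. That is the smallest that 70 assignments allow, and the value was the same after Benjamini-Hochberg adjustment over the 5 pairs. The pairs were chosen with earlier results of these data known, and their ratios use the same counts as the fold changes. These p-values are therefore no separate support. The SEC61A2 to SEC61A1 ratio missed the threshold on leaving out DMSO replicate 1, 3 or 4 (exact permutation, adjusted p = 0.0571 for each), where its difference was -0.63, -0.56 and -0.62.

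**Figure D4:**
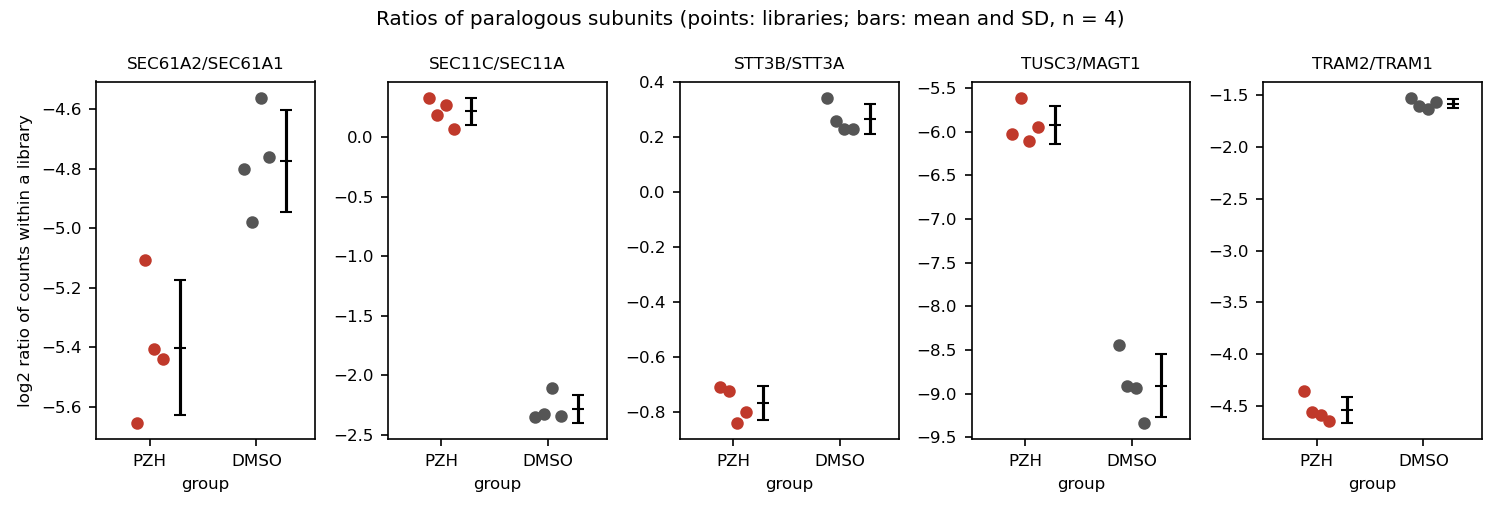
Log2 ratio of counts of related subunits within each library, PZH on the left and DMSO on the right of each panel, with panels on their own scales. Points are libraries, and the bars give mean and SD of 4 libraries. SEC11C/SEC11A is higher in PZH than in DMSO, and STT3B/STT3A is lower in PZH than in DMSO. Since genes differ in length, the position of a ratio relative to 0 was not read.

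Genes around this apparatus were called in both directions. In 5 further lists of the pathway, 76 genes were tested, of which 38 (50%) were called higher, 27 (35.5%) lower and 11 not called, with a median log2 fold change of 0.22. The shares over all genes tested were 39.3% and 40.9%, and without scaling factors the order in the lists turned round, with 31 higher and 35 lower, so these counts single out no direction for the lists as a whole. Of 10 enzymes that supply sugar nucleotides, 8 (80.0%) were called higher and 1 lower, with a median of 1.46 (2 lower without scaling factors). PGM3, GFPT1 and UAP1, which act in the hexosamine route to UDP-GlcNAc, rose 4.88-fold, 4.61-fold and 4.36-fold. GFPT1, the entry enzyme, had 578, 527, 555 and 587 CPM in PZH and 123, 123, 121 and 119 CPM in DMSO, with the groups far apart. GFPT2, a second gene for that enzyme, fell 2.17-fold, with 10.1 ± 1.47 CPM in PZH and 22.0 ± 1.44 CPM in DMSO.

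Of 24 genes that build the lipid-linked sugar tree, 11 (45.8%) were called higher and 9 (37.5%) lower (median 0.20), or 9 and 11 without scaling factors, near the 39.3% and 40.9% of all genes tested. ALG5, which makes the glucose donor, the mannosyltransferase ALG2 and DHDDS, which makes the dolichol chain, rose 2.47-fold, 2.40-fold and 1.93-fold. The mannosyltransferase ALG1 and the glucosyltransferases ALG6 and ALG10 fell 2.74-fold, 2.32-fold and 2.67-fold. ALG10 has a close copy, ALG10B, and ALG1 has truncated copies, so their values are uncertain. Of 23 other genes of membrane insertion and the translocon, 13 (56.5%) were called higher and 7 (30.4%) lower (median 0.31), or 9 and 10 without scaling factors, against 39.3% and 40.9% of all genes tested. Among them HM13, the peptidase that clears cut signal peptides, rose 2.45-fold to 293 ± 13.4 CPM in PZH, against 119.5 ± 3.76 CPM in DMSO.

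Subunits of the ER membrane complex, an insertase, parted. EMC3 and EMC7 rose 3.15-fold and 1.86-fold, while EMC10 and EMC1 fell 2.68-fold and 1.43-fold. NCLN, of the multipass translocon, fell 2.13-fold. Of 7 genes that target tail-anchored proteins, 2 (28.6%) were called higher and 4 (57.1%) lower (median -0.22), against 39.3% and 40.9% of all genes tested. CAMLG, the ER receptor subunit, and BAG6, a cytosolic holdase, rose 1.69-fold and 1.31-fold, and the targeting ATPase ASNA1, the receptor subunit WRB and UBL4A fell 1.38-fold, 1.29-fold and 1.31-fold. With each library's GC trend removed, 2 of the 7 were lower and UBL4A was not called (log2 value -0.084, adjusted p = 0.303).

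Of 12 genes of sugar trimming and related steps, 4 (33.3%) were called higher and 6 (50%) lower (median -0.14), near the 39.3% and 40.9% of all genes tested. TMEM258, a further subunit of oligosaccharyltransferase outside the 36, rose 1.89-fold, with 93.9 ± 7.53 CPM in PZH and 49.6 ± 2.26 CPM in DMSO. The cytosolic glycanase NGLY1 and the first glucosidase MOGS rose 1.94-fold and 1.37-fold. The mannosidase MAN1A1 fell 4.49-fold, with 60.2 ± 5.24 CPM in PZH and 270.0 ± 12.5 CPM in DMSO. MAN1B1, another mannosidase, and PRKCSH, a subunit of the second glucosidase, fell 1.71-fold and 1.56-fold.

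**Figure D5:**
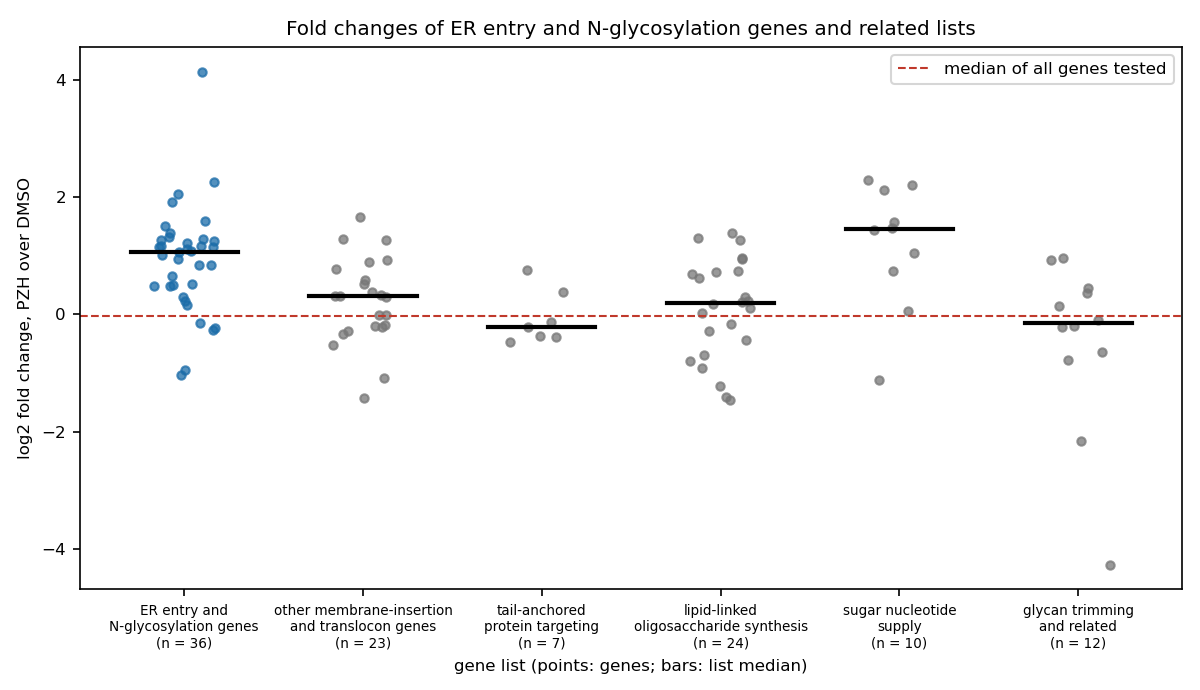
Log2 fold change of PZH over DMSO for the 36 ER entry and N-glycosylation genes and for 5 related lists. Points are genes, black bars list medians, and the dashed line the median of all genes tested. The sugar nucleotide list has a median of 1.46 and the ER entry genes one of 1.07, and the other lists lie between -0.22 and 0.31.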

How the data were processed

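Per the labels' protocols, RNA of 8 HCT116 samples was extracted with Trizol, enriched for poly(A) RNA on magnetic beads and made into libraries with an NEBNext Ultra RNA kit. Per the submitters' processing notes, the tools were HISAT2 2.1.0, StringTie 1.3.3b, FastQC 0.11.5 and DESeq 1.28.0. Which genome build and annotation served, and whether strand was used, is not given there. Raw whole-number counts per gene symbol were deposited, with 1 column per library. In 25 rows the gene name has become a date (0.178% to 0.220% of counts), and these were kept and are not named.

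Genes were kept by filterByExpr with defaults (minimum count 10, minimum total 15), leaving 15006. Libraries were scaled with TMM and compared by edgeR's two-sided quasi-likelihood F test without covariates, at a Benjamini-Hochberg adjusted p of 0.05 over all genes. Fold changes are PZH over DMSO, and a standard error is the log2 value over the root of F. Ratios within a library used counts plus 0.5. Counts of every replicate pair differed beyond sampling noise (chi-square over its degrees of freedom 2.39 or more), so no pair was counted as 1 library. The edgeR fit was tested on simulated data in which few genes changed, as many higher as lower. Since 80.3% of genes tested were called here, that test does not vouch for the scaling or error rates in these data. The 36 genes, related lists, the rule for named genes (all 36 genes, and from each related list up to 3 called genes per direction with the smallest p) and pairs were chosen with earlier results of these data known. Intervals of log2 fold changes come from the edgeR standard errors and include the spread between libraries, while binomial intervals and floors cover counting error only. R 4.3.3 ran edgeR 4.0.16 and, for alternatives, DESeq2 1.42.0 and limma 3.58.1, and Python 3.11.15 searched the promoters. The alternatives are in the closing section.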

Additional observations from a re-analysis of the deposited data

Results flagged for a closer look

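In 8 of 136 groups of 4 libraries, 1 library stood apart from the other 3 by Dixon's test at its 95% critical value, where chance gives about 1 in 20. PZH replicate 1 was low for SPCS2, at 209.9 CPM against 226 to 229 CPM in the other PZH libraries, and high for RPN2, at 338 CPM against 319 to 319.7 CPM. For MAGT1, DMSO replicate 4 stood at 108 CPM against 103 CPM in the other DMSO libraries. DMSO replicate 1 was low for HM13, at 114 CPM against 121 to 122 CPM, and for EMC10, at 81.9 CPM against 87.0 to 88.0 CPM. DHDDS was low in DMSO replicate 2, at 33.3 CPM against 34.7 to 34.9 CPM. TMEM258 was high in PZH replicate 2, at 105 CPM against 89.8 to 90.3 CPM. The log2 ratio of SEC11C to SEC11A was -2.11 in DMSO replicate 3 and -2.35 to -2.33 in the other DMSO libraries.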

How the results depend on the processing

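Across 20 alternatives to the edgeR fit, 28 to 31 of the 36 genes were called higher and 5 lower in each. Of 720 log2 fold changes of these genes under an alternative, 716 kept direction and side of the threshold. The exceptions were SPCS3 without scaling factors (0.040), RPN2 with upper quartile factors (0.095), and RPN2 and STT3B without scaling factors, which reversed to -0.090 and -0.033 and were not called. Leaving out the factors moved the median log2 value of all genes by -0.26, with 4473 genes called higher and 7670 lower, and the higher share of calls was 36.8% in place of 49.0%. The median of the 36 genes was then 0.81. Of the related lists, 31 genes were then higher and 35 lower, with 2 sugar nucleotide genes lower in place of 1. Removing each library's GC trend, an alternative chosen after seeing the data, left 31 and 5 calls with a median of 0.99, and UBL4A was no longer called (-0.084, adjusted p = 0.303), with 2 tail-anchored targeting genes lower in place of 4. The remaining 539 of 540 values of named list genes kept their call. DESeq2, limma-voom, other filters, robust fitting, an adjusted p of 0.01 and leaving out the 10 most abundant genes or each library in turn changed no call among the 36 genes.

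Deviations from the group mean correlated only weakly between same-numbered PZH and DMSO libraries (correlation 0.0063 to 0.033, all positive). Even so, 7 of 8 libraries correlated best with their own number. With the replicate number as a block, 31 and 5 of the 36 genes, 39 and 27 list genes, and 5889 and 6125 of all genes were called higher and lower. On leaving out each library, the SEC61A2 to SEC61A1 difference ran from -0.72 to -0.54 and missed the threshold in 3 cases (exact permutation). Depth limits TUSC3, at 3 to 6 counts per DMSO library, and KRTCAP2.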

Other observations

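The RNA scaffold of SRP carries no long poly(A) tail and was read at low levels in these poly(A) libraries. The row RN7SL2 held 1.45, 1.01, 3.03 and 1.79 unscaled CPM in PZH replicates 1 to 4 and 0.703, 1.19, 1.07 and 1.56 unscaled CPM in DMSO replicates 1 to 4, so the groups overlapped.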
